A study of Drosophila melanogaster with 5 samples.

Results

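The ImpE and ImpL genes of Drosophila melanogaster are described here in sorted neurons: ImpE1, ImpE2 and ImpE3 of the early class and ImpL1 and ImpL2 of the late class. All 5 genes were on the array, with 7 probe sets among the 12443 that carry 1 gene symbol, and the symbols stand for 10844 genes in all. The gene set was chosen by the intensities themselves, because some of its members had large differences between larval brain and embryo culture. Levels and differences of the 5 genes are therefore a description, and no p-value is given for them.

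Steroid pulses of ecdysone drive moulting and metamorphosis in insects. Ecdysone binds a receptor made of the nuclear receptors EcR and Usp, which switches on a first tier of transcription factors and then many effector genes. The Imp genes were named as transcripts of membrane-bound polysomes that ecdysone induces in imaginal discs, the epithelia that form adult appendages, some early (ImpE) and some late (ImpL). Most of them encode secreted or cell surface proteins.

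The neurons came from larval brain (1 array, larval brain a) or from cultured embryonic cells (4 arrays, embryo culture a to d). In both sources GFP was driven by Gal4 under a 7.4 kb piece of Cha regulatory DNA, through UAS-GFP, and fluorescent cells were isolated by flow cytometry after dissociation of the brain or from the culture. The driver, not an antibody or a second marker, defines the cells as cholinergic. Neither the larval stage nor the age of the cultures is given in the sources used here, nor whether the embryo culture arrays come from separate cultures, so the spread between them may be technical.

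Each value is a linear probe set intensity on a scale that the authors set to a common trimmed mean. Background was taken as the brightest of 23 control probe sets for foreign sequences on an array, which was 82.6 on the larval brain array and, from a to d, 148, 200.4, 119 and 271 in embryo culture. Embryo culture array d stood apart in the bacterial and phage control transcripts, whose 9 probe sets had a geometric mean of 12009 there, against 4616 on the larval brain array and 2995 to 4913 on arrays a, b and c of embryo culture. Among the neuronal markers, ChAT, which encodes the acetylcholine-making enzyme, was above background on every array. The pan-neuronal gene elav was under background on embryo culture arrays a and b. The synaptic genes nSyb and brp were under it on b and on a, c and d, respectively.

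Larval brain neurons carried a very strong ImpE2 signal, clear ImpL1 and weaker ImpE3 signals, and embryo culture neurons carried none of the 3 above background. ImpL2 was bright in both sources and lower in larval brain than on every embryo culture array. ImpE1 was dim in both, with larval brain inside the embryo culture range. In all, 3 of the 5 genes lay above and 1 below all 4 embryo culture arrays. Of all 10844 genes, 26.2% lay above and 29.6% below in the same way. These are bulk measurements, in which fewer cells that express a gene and less RNA per cell cannot be told apart.

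**Figure D1:**
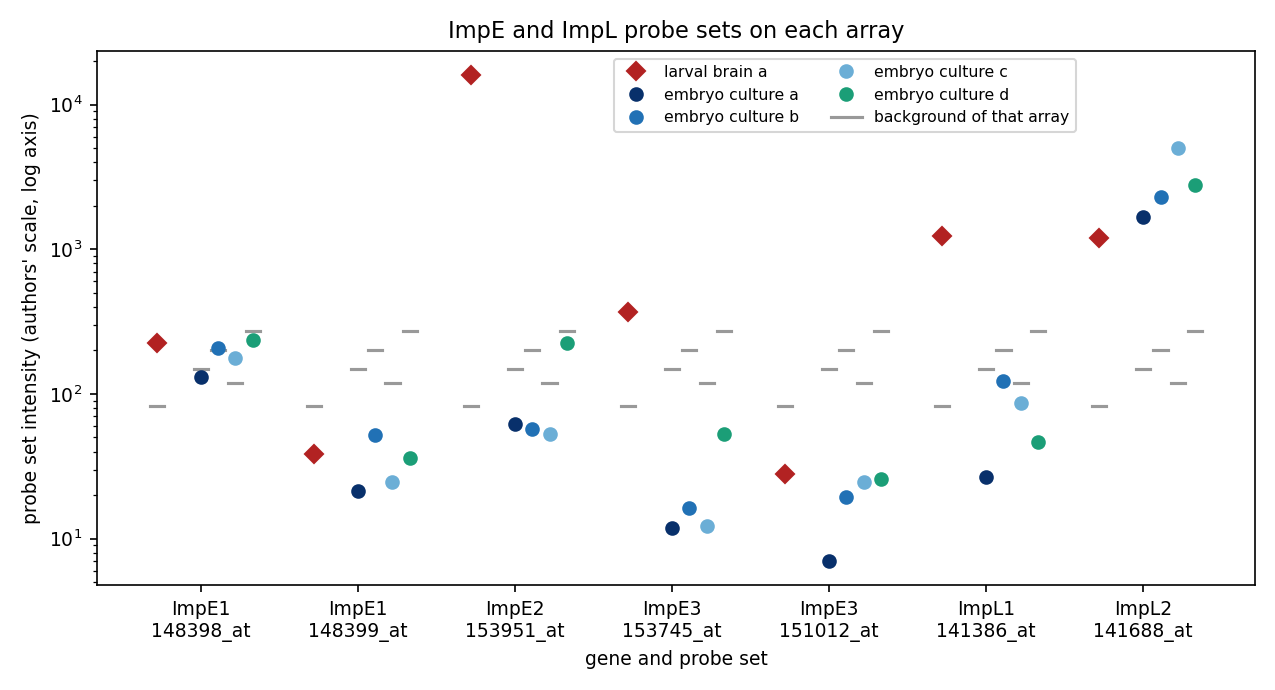
Intensity of each ImpE and ImpL probe set on a log axis, with larval brain as diamonds, the 4 embryo culture arrays as circles and each array's background as a grey dash. ImpE2, ImpE3 (153745_at) and ImpL1 are above background only in larval brain, ImpL2 is at least 10.3 times background on every array, and the second probe sets of ImpE1 and ImpE3 are under it everywhere.

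Among the early genes, ImpE2 encodes an extracellular protein of the apical surface of disc epithelia and is known from the eversion of leg and wing discs. Its intensity was 15984 in larval brain, against 61.9, 56.8, 53.2 and 225 in embryo culture (a to d). The larval brain value was 194 times its array's background, and each embryo culture value was under its own. Array d was the highest of the 4 by a wide gap, yet at 225 it did not reach its background of 271. Against the background levels, larval brain ImpE2 was higher by at least 90.9-fold, with a log2 difference of 6.91 ± 0.70 (SE). A log2 difference here is larval brain minus embryo culture after 47.4 was added to each intensity, which shrinks the differences of dim genes. Where embryo culture is under background, as here, the size of the difference depends on the amount added.

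ImpE3 encodes a predicted extracellular protein first described in discs, and its 2 probe sets did not give the same picture. Probe set 153745_at had an intensity of 368 in larval brain, 4.46 times background, against 11.9, 16.3, 12.2 and 52.7 in embryo culture (a to d), all under background. Larval brain lay above all 4 embryo culture arrays, as for 26.2% of all genes. Against background the larval brain level was higher by at least 2.09-fold (log2 difference 2.59 ± 0.48). The other probe set, 151012_at, read 27.8 in larval brain and 7.0 to 26.0 in embryo culture, under background on all 5 arrays. Averaging both probe sets took the log2 difference to 1.39 ± 0.36. No sequence of either was used here, so which part of the transcript each reads was not tested.

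ImpE1 encodes a protein with repeats like those of the low-density lipoprotein receptor. Probe set 148398_at had 226 in larval brain, against 130.5, 208, 177 and 236 in embryo culture a, b, c and d. The larval brain value lay inside the embryo culture range. It was 2.73 times background in larval brain, while embryo culture arrays b and c were just above background and a and d under it. The log2 difference was 0.24 ± 0.64, with an SE larger than the difference, so a moderate change in either direction could not be detected. Its second probe set, 148399_at, was under background throughout, at 38.5 in larval brain and 21.5 to 52.0 in embryo culture.

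Of the late genes, ImpL1 had 1241 in larval brain, against 26.8, 123, 86.9 and 46.8 in embryo culture (a to d). The larval brain value was 15.0 times background, and no embryo culture array exceeded its own background. Against background its larval brain level was higher by at least 7.05-fold (log2 difference 3.52 ± 0.71).

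ImpL2 encodes a secreted immunoglobulin-domain protein that binds insulin-like peptides and restrains growth. It had 1192 in larval brain, against 1664, 2311, 4974 and 2788 in embryo culture (a to d). The larval brain value was 14.4 times background and the embryo culture values 10.3 to 41.8 times. Embryo culture averaged 2934 ± 1436 (SD, n = 4), a mean 2.46 times that of larval brain, and the log2 difference was -1.15 ± 0.54. Within embryo culture the highest array was 2.99 times the lowest. The larval brain value lay below all embryo culture arrays, as for 29.6% of all genes.

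ImpL2 also moved with an index of RNA quality. The mean log2 ratio of 3′ to middle signal of the control transcripts for actin, GAPDH and eIF-4a was 1.15 in larval brain and, from a to d, 2.45, 2.35, 1.49 and 1.66 in embryo culture. Over the 4 embryo culture arrays, ImpL2 was higher where this index was lower, while larval brain had the lowest index and the lowest ImpL2. With the index as a covariate the difference of ImpL2 went to -2.17 ± 0.45, further below 0 than without it. Those of ImpE2, ImpL1, ImpE3 and ImpE1 went to 6.43 ± 0.89, 3.39 ± 0.98, 2.33 ± 0.68 and 0.00 ± 0.87. The part of RNA quality in these differences was not tested.

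**Figure D2:**
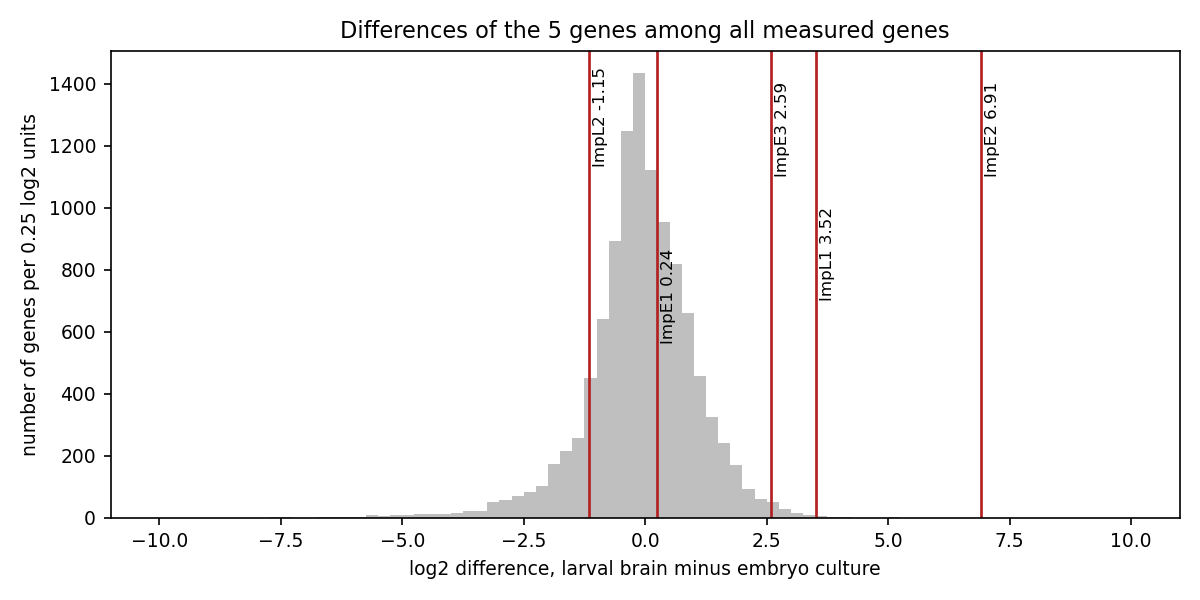
Number of genes per 0.25 log2 units of the difference, larval brain minus embryo culture, over all 10844 genes, with the 5 genes as red lines. ImpE2 at 6.91, ImpL1 at 3.52 and ImpE3 at 2.59, all under background in embryo culture, lie in the right tail, and ImpE1 at 0.24 and ImpL2 at -1.15 lie in its bulk.

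Of the early class, ImpE2 and ImpE3 lay above all embryo culture arrays in larval brain and ImpE1 lay inside their range. Of the late class, ImpL1 lay above them and ImpL2 below them, the position of 29.6% of all genes. As a measure of likeness, the Euclidean distance between log2 profiles over the 5 arrays, each centred on its mean, was smallest between ImpE3 and ImpL1 (1.48) and largest between ImpE2 and ImpL2 (7.40).

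**Figure D3:**
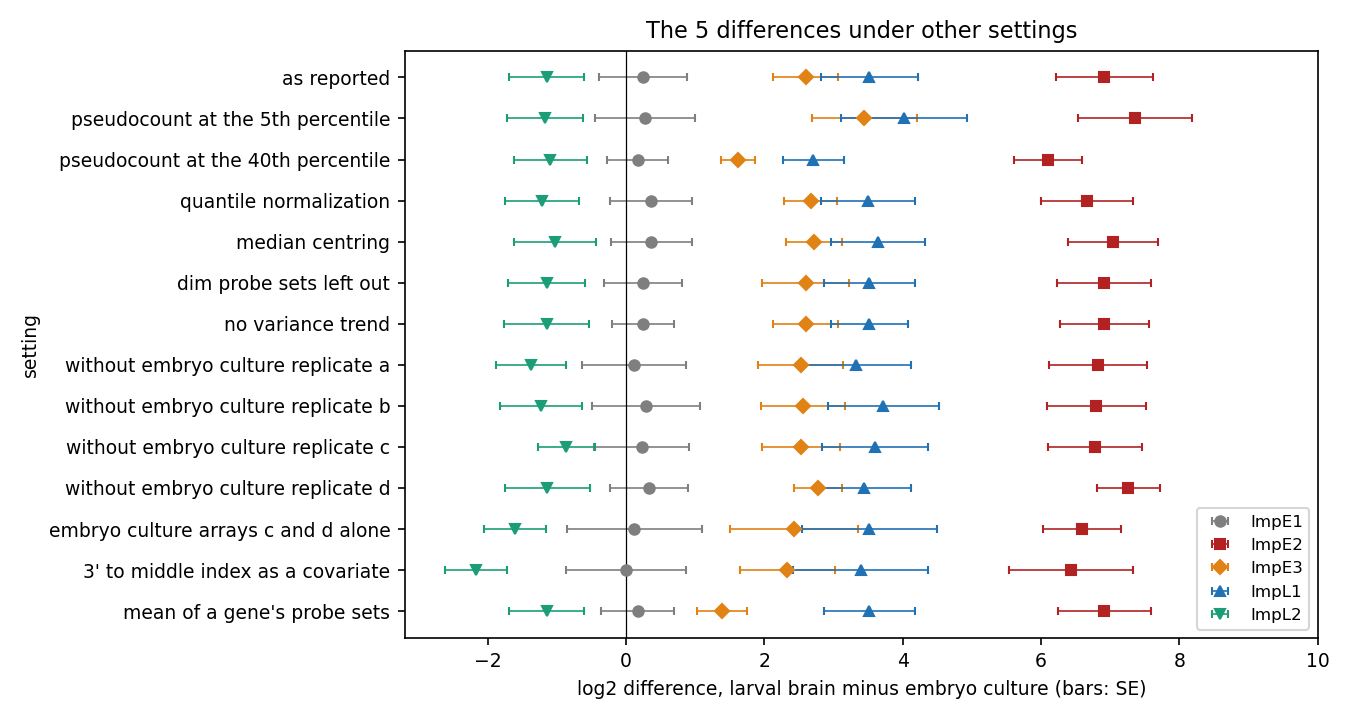
Log2 difference of each gene, larval brain minus embryo culture, as reported and under 13 other settings, with SE bars. ImpE2 stayed between 6.10 and 7.36, ImpL1 between 2.71 and 4.02 and ImpE3 between 1.39 and 3.44, while ImpL2 stayed below 0 and ImpE1 near 0.

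The same distance was taken from each of the 5 to all other genes without a CG or CR number. Among those, the gene most like ImpE2 was Syp, an RNA-binding protein gene. It had 5996 in larval brain and 21.0 to 118 in embryo culture (distance 1.74). The serpin gene Spn43Aa followed (2368, against 13.5 to 42.1, distance 1.80). ImpE3 was closest to Srrm1, a splicing factor gene (351 in larval brain, 11.6 to 47.5 in embryo culture, distance 0.17), and to nocte (400.0, against 13.6 to 52.7, distance 0.26). ImpL1 was closest to Sf3b6, a splicing factor subunit gene (4691, against 398 to 702, distance 0.74), and to the Notch target E(spl)m7-HLH (4801, against 399.5 to 628, distance 0.81). For ImpL2 they were PH4alphaMP, a prolyl hydroxylase gene (8.2, against 29.8 to 159, under background in larval brain and on 3 of the 4 embryo culture arrays, distance 0.23), and the serpin gene Spn77Ba (257, against 457 to 1140.5, distance 0.27). ImpE1 was closest to the chaperone gene Hsp60A (distance 0.13) and the centriole gene asl (distance 0.14). These likenesses rest on 5 arrays, and in the first 3 cases mainly on the larval brain array. On all 4 embryo culture arrays Syp, Spn43Aa, Srrm1 and nocte were under background, as ImpE2 and ImpE3 were. By contrast, Sf3b6 and E(spl)m7-HLH were above it on all 4, where ImpL1 was under it.

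Few genes on the ecdysone pathway lists passed the test between larval brain and embryo culture. The ImpE and ImpL genes, chosen by their intensities, are no baseline for these counts. Of 78 genes on 4 lists (receptor and regulators, synthesis and uptake, response genes, disc eversion), 56 were named on the array. With limma's moderated test and Benjamini-Hochberg adjustment over all probe sets, 0 of the 56 were higher and 1 was lower in larval brain, and at an unadjusted p under 0.05 the counts were 6 and 4. Over all genes 0.821% were called higher and 2.81% lower, and 8.47% and 8.8% had an unadjusted p under 0.05 in the same directions, so the counts of the 56 were near the general rate. The median log2 difference of the 56 was -0.36, beside -0.07 over all genes. Of the 56, 20 had a positive difference, beside 5025 of all 10844 genes. For the ImpL3 gene, now called Ldh, the annotation used here names no probe set.

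Of the receptor and its regulators, 16 of 19 were measured and 0 passed the test in either direction (2 higher and 0 lower at an unadjusted p under 0.05). EcR, named here after its values were seen, had 233 in larval brain, against 310.5, 911, 54.6 and 299 in embryo culture (a to d), a spread that holds the larval brain value. Its partner usp, likewise, had 238 in larval brain, against 576, 423, 294 and 380.1, which put larval brain just below the others. The brightest regulator was br, the Broad transcription factor gene of the first response tier, with 1641 in larval brain and 316, 282, 191 and 108 in embryo culture. On array d it was under background. In larval brain br lay above all 4 embryo culture arrays, as did 26.2% of all genes. Its groups did not overlap, and its log2 difference of 2.71 ± 0.63 missed the threshold (limma adjusted p = 0.0548, between 0.00198 and 0.157 over 13 other settings, of which 4 were past it). Next came Kr-h1, a zinc finger gene of juvenile hormone response, with 576 in larval brain and 129 to 327 in embryo culture, and DopEcR, a membrane receptor for dopamine and ecdysteroids, with 250.2 in larval brain and 233 to 591 in embryo culture.

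For synthesis and uptake, 9 of 12 genes were measured and 0 passed (1 higher and 0 lower at an unadjusted p under 0.05). Oatp74D, which encodes the ecdysone importer, had 1512 in larval brain and 800.5 to 1020.2 in embryo culture, a log2 difference of 0.74 ± 0.39. The hydroxylase gene sad had 701 in larval brain and 401 to 1013 in embryo culture, and sro had 189 in larval brain and 142 to 247 in embryo culture.

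Among ecdysone response genes, 24 of 35 were measured and 0 passed (2 higher and 2 lower at an unadjusted p under 0.05). The small heat shock gene Hsp27, which ecdysone as well as heat induces, had 28113 in larval brain, against 1048, 1125, 5404 and 3806 in embryo culture a to d. Its log2 difference was 3.63 ± 0.84 (limma adjusted p = 0.0541, from 1.75e-05 to 0.119 over 13 other settings, 4 of them past the threshold). Hsp26 had 24627 in larval brain and 1491 to 9725 in embryo culture. In embryo culture both were lower on arrays a and b than on c and d, and on a and b the 3′ to middle index was highest. Genes of this list also went the other way. Ddc, the dopa decarboxylase gene, had 2053 in larval brain and 4469 to 8429 in embryo culture, a log2 difference of -1.63 ± 0.44. Edg91, named here after its values were seen, had 119 in larval brain and 446 to 3084 in embryo culture, a log2 difference of -3.18 ± 0.86. The salivary glue and 71E prepupal genes were mostly dim. Exceptions were Sgs7, with 1465 in larval brain and 114 to 1967 in embryo culture, and Sgs8, with 330 and 503 to 781. Of the 24, 10 were at or under background in larval brain. These 10 and Sgs3, 11 in all, were also at or under it on all 4 embryo culture arrays. The 10 could therefore hardly be called in either direction.

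Disc eversion genes, which act in the process ImpE2 is known from, were measured for 7 of 12. The integrin subunit gene if fell, at 52.8 in larval brain, which is under background, against 633, 607, 522 and 490 in embryo culture a to d. It was at least 6.78-fold lower (log2 difference -2.60 ± 0.50, limma adjusted p = 0.0261). Leaving out array a, b or c of embryo culture ended this call, and its adjusted p ran from 0.0153 to 0.102 over 13 other settings. The call was also lost with the pseudocount at the 40th percentile and with c and d as the only embryo culture arrays. It was lost too with the 3′ to middle index as a covariate. Another integrin gene, mys, had 1688 in larval brain and 2441 to 6332 in embryo culture. The gene mew had 451 in larval brain and 435 to 1014 in embryo culture, and the kinase gene Rok had 323 in larval brain and 241 to 464.5 in embryo culture. In this list 1 gene was higher and 2 were lower at an unadjusted p under 0.05. The higher one was the matrix protease gene Mmp2, named here after its values were seen. It had 341 in larval brain and 24.0 to 66.9, under background, in embryo culture.

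Because ImpL2 binds insulin-like peptides, insulin pathway genes were set beside it. Of 19, 10 were measured and 0 passed in either direction by limma (0 higher and 1 lower at an unadjusted p under 0.05), with a median log2 difference of -0.30. The ligand gene Ilp2 and the receptor gene InR, named after their values were seen, were dim: Ilp2 had 108 in larval brain and 81.9 to 485 in embryo culture. InR had 230 in larval brain and 15.2 to 149.7, under background, in embryo culture. Brightest were the adaptor gene chico, with 2047 in larval brain and 1026 to 2589 in embryo culture, and the kinase genes Pdk1, with 559 and 1045 to 1726, and S6k, with 866 and 336 to 926, in the same order.

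**Figure D4:**
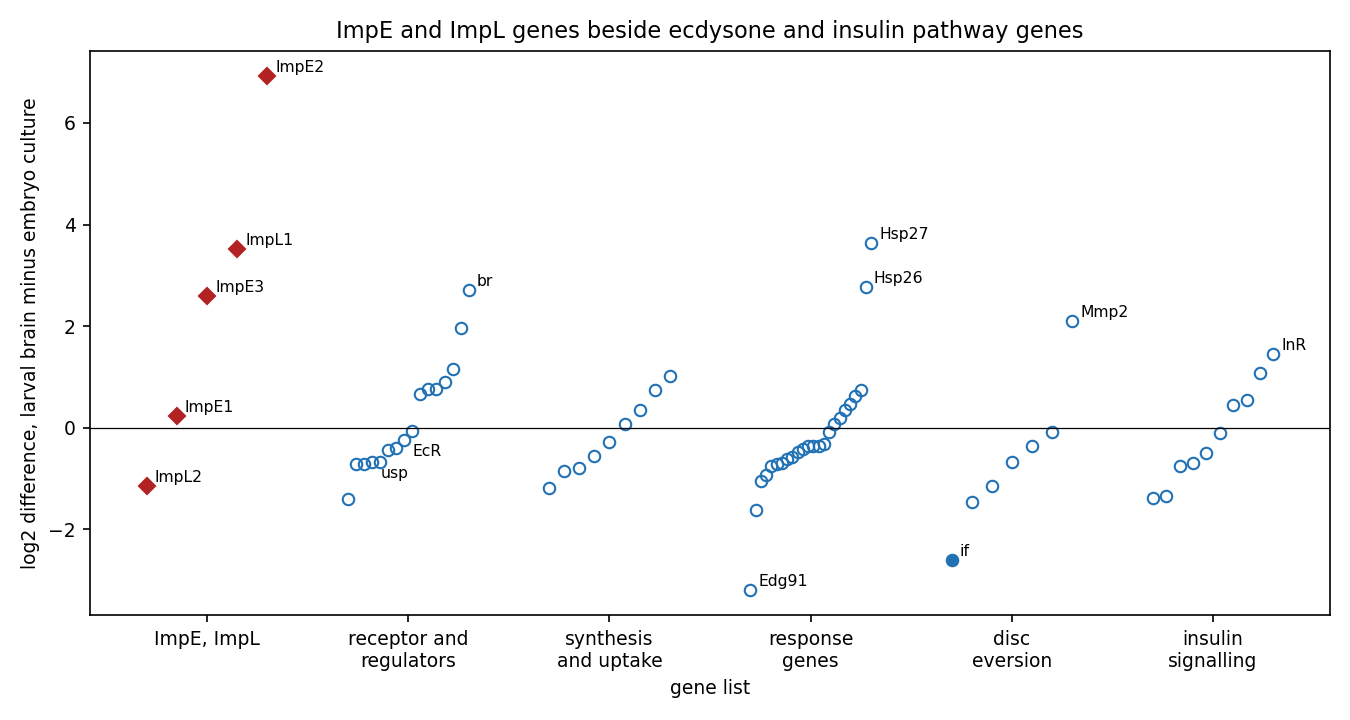
Log2 difference, larval brain minus embryo culture, of each measured gene by list, with the ImpE and ImpL genes as red diamonds and a filled circle for a gene past the limma threshold. Only if is filled, ImpE2 is plotted at 6.91, and Hsp27 at 3.63 is the highest point of the other 5 lists.

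Genes that lie beside the 5 on the chromosome did not pass the test. For each member the 2 nearest measured genes on each side, by order in the RefSeq gene table of Release 6, gave 20 neighbours. By limma 0 of the 20 were higher and 0 lower, beside 0.821% and 2.81% of all genes, and 1 had an unadjusted p under 0.05, beside 17.3% of all genes in either direction. With so few genes called in general, a count of 0 among 20 does not set the neighbours apart from other genes. Their median log2 difference was -0.01, and they ranged from -1.52 to 1.38. Larval brain lay above all embryo culture arrays for 5 of them, below for 6 and between for 9, near the 26.2% above and 29.6% below over all genes, and 4 were under background on every array. Right beside ImpE2 lies Eip63E, a cyclin-dependent kinase gene that is itself named for induction by ecdysone. It had 999 in larval brain, against 2307, 2238, 1460 and 1160.4 in embryo culture a to d, a log2 difference of -0.76 ± 0.46. On the other side of ImpE2, CG42324 had 381 in larval brain and 128 to 242 in embryo culture.

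The nearest genes of ImpE1 were Idh, an isocitrate dehydrogenase gene with the highest difference of the 20 (6666 in larval brain, 1676 to 4747 in embryo culture, log2 difference 1.38 ± 0.57), and the protease gene Jon66Ci, under background everywhere. Beside ImpE3, CG2747 had 408 in larval brain and 449 to 980.3 in embryo culture, and CG10903 had 456 in larval brain and 141 to 684 in embryo culture. Beside ImpL1, CG14107 was under background on all 5 arrays, and CG14110 had 82.0 in larval brain and 46.3 to 392 in embryo culture. Around ImpL2, the cuticle protein gene Cpr64Ad had 709 in larval brain and 800.5 to 1116 in embryo culture, and Sqor had 182 in larval brain and 183 to 395.5 in embryo culture.

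**Figure D5:**
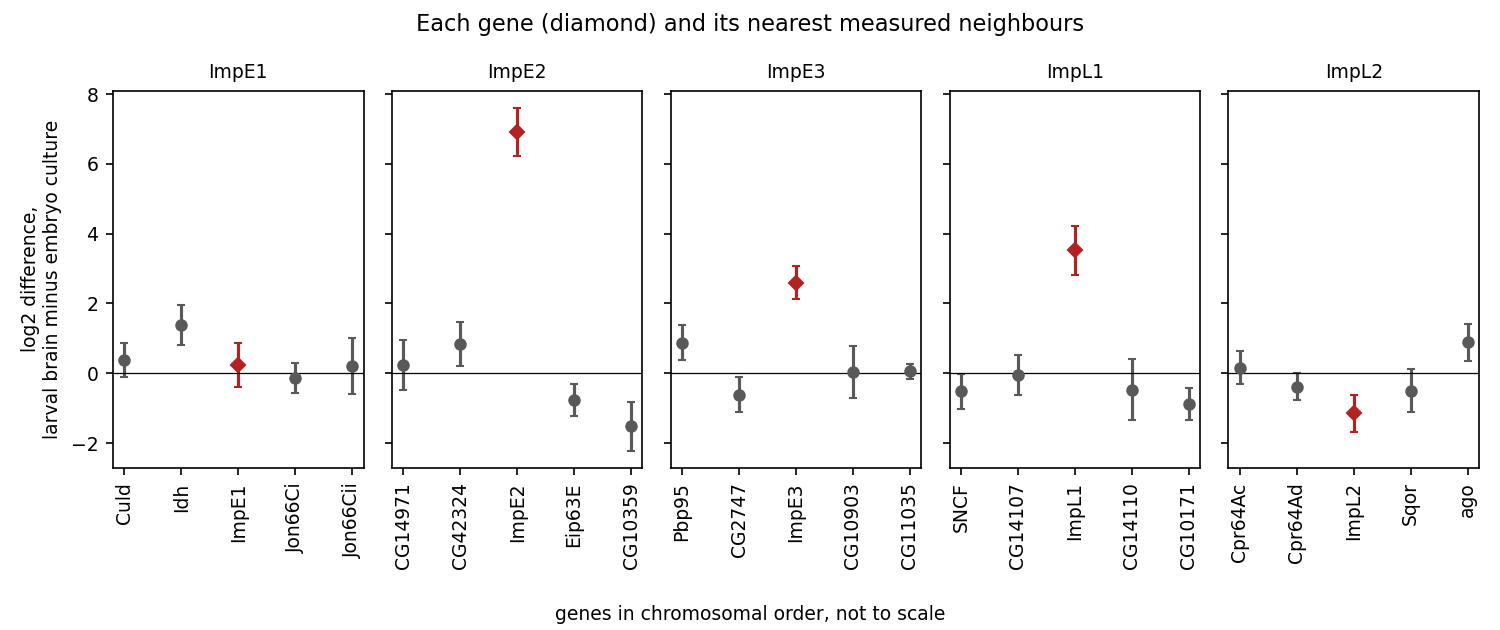
Log2 difference with SE, larval brain minus embryo culture, of each gene (red diamond) and its nearest measured neighbours (grey circles) in chromosomal order, not to scale. ImpE2, ImpE3 and ImpL1 stand above their neighbours, which lie between -1.52 and 1.38, while ImpE1 and ImpL2 lie within that span. The gene set was chosen for large differences of some members, so this is a description and no test.

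Markers of other cells were measured beside these genes. Epithelial and imaginal disc markers, the tissue the Imp genes were named in, summed to 1902 in larval brain and 1645 to 2318 in embryo culture, with 0 of 6 past the limma threshold, 0 at an unadjusted p under 0.05, and 0 at or under background in larval brain. Of these 6 genes, crb and nub lay above all embryo culture arrays in larval brain, beside 26.2% of all genes. The gene nub had 139 in larval brain and 22.1 to 107 in embryo culture, under background on all 4 arrays. The summed level was lower in larval brain than on every embryo culture array for glial (1399 against 2292 to 3448), hemocyte (721 against 966 to 3700.3), fat body (520.4 against 1263 to 1740), muscle (132 against 159 to 1404) and ring gland markers (1103 against 1344 to 2666), as ImpL2 was. Below all embryo culture arrays lay 3 of 7 glial and 5 of 7 hemocyte genes, beside 29.6% of all genes. So did 2 of 4 fat body, 2 of 3 muscle and 2 of 3 ring gland genes. The difference was positive for 2 glial genes, 1 hemocyte gene and 1 ring gland gene. Of these lists the glial one had 1 of 7 genes past the threshold, Mdr65, a transporter gene of the blood-brain barrier, lower in larval brain, and the others 0 of 7, 0 of 4, 0 of 3 and 0 of 3. At an unadjusted p under 0.05, 2 glial genes and 1 gene of each of the others were lower and 0 higher, beside 8.8% lower and 8.47% higher over all genes. In larval brain the hemocyte genes Hml, srp, NimC1, vkg and eater, the muscle genes Mlc1, up and Tm2, and Mdr65, Yp1 and dib were at or under background. Of the 4 embryo culture arrays, srp, Tm2 and Yp1 were at or under background on 3. There NimC1, vkg, eater and dib were so on 2, Mlc1 and up on 1, and Hml and Mdr65 on 0. Tracheal markers summed to 3966 in larval brain and 2688 to 7077 in embryo culture (0 of 4 past the threshold, 0 at an unadjusted p under 0.05), with btl under background in both. The ring gland list shares sad and dib with the synthesis list, and the fat body list shares Fbp1 with the response genes. Neuronal markers summed to 6462 in larval brain and 1837 to 4079 in embryo culture (0 of 4 past it, 2 higher at an unadjusted p under 0.05). Of these, elav had 3047 in larval brain, against 103.8, 61.4, 713 and 667 in embryo culture a to d, nSyb, a synaptic vesicle gene, had 910 in larval brain and 151 to 423.5 in embryo culture, and brp, a gene of the presynaptic active zone, had 249.7 in larval brain and 19.6 to 241 in embryo culture. These 3 lay above all embryo culture arrays in larval brain, as did ImpE2, ImpE3 and ImpL1, and as did 26.2% of all genes. ChAT had 2255 in larval brain and 1457 to 2926.5 in embryo culture. The part of neuronal RNA and of other cells in the Imp differences was not tested.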

How the data were processed

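RNA of sorted neurons was measured on 5 arrays, 1 of larval brain and 4 of embryo culture. The deposited values are linear intensities, 1 per probe set and array, which the authors scaled to a common mean, as the values show: after trimming 2% at each end it was 500.06 to 500.08 on all arrays. Software and background correction are not given in these sources. Of 14010 probe sets 44 were controls and 13966 were tested, of which 12443 carry 1 symbol, 327 several and 1196 none in the array's annotation. Identifiers of 12394 were found in the RefSeq table of Release 6, which changed 0 symbols. No coordinates or sequences are given.

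Intensities plus 47.4 (the 20th percentile of all values) were put on a log2 scale and fitted across all probe sets with limma 3.58.1 in R 4.3.3 (lmFit, eBayes with a variance trend, two-sided, Benjamini-Hochberg, threshold 0.05). With 1 larval brain array, taken to vary like the others, all spread came from embryo culture (3 residual degrees of freedom, moderated to 9.11). The number of arrays limits the precision, with a median SE of 0.58. Where a gene had several probe sets, the brightest by the mean of both group means stood for it. "At least N-fold" sets the brighter group's geometric mean against the higher of background and signal on each array of the dimmer group. Tables used pandas 2.3.3 and NumPy 2.4.6 in Python 3.11.15, and plots matplotlib 3.10.9.

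The members and gene lists were chosen with earlier results of these data known. Named were all members, up to 5 genes past the threshold and the 3 brightest of each pathway list, the nearest neighbours of each member, and the 2 genes (without CG numbers) most like it. EcR, usp, Edg91, Mmp2, Ilp2 and InR were named after their values were seen. Alternatives changed the pseudocount, scaling, filter, variance trend, arrays, a 3′ bias covariate and the probe set rule.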

Additional observations from a re-analysis of the deposited data

Results flagged for a closer look

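Of 137 probe sets (those of the 5 genes, and of the listed, neighbouring and most alike genes), 7 had 1 embryo culture array far from the other 3. The nominal rate of such a rule, about 1 in 20 groups, is for independent values of normal spread. These probe sets share arrays, and Srrm1 was chosen for its likeness to ImpE3, so 7 cannot be set against that rate. In 5 of the 7 it was array d. On array d ImpE2 read 225, against 53.2 to 61.9 on arrays a, b and c, and ImpE3 (153745_at) read 52.7, against 11.9 to 16.3. Srrm1, the gene most like ImpE3 among those without a CG or CR number, read 47.5, against 11.6 to 16.5. The tracheal gene btl read 188.5, against 25.6 to 49.5. These 4 values are under that array's background of 271. The hydroxylase gene sad, at 1013 against 401 to 472, was above it. The disc eversion gene Sb read 138.9 on array b, under its background, against 16.0 to 25.4, and the tracheal gene serp read 888 on array c, above its background, against 111 to 214. Array d also had the highest background and the brightest bacterial and phage control transcripts, and the part of this in the values was not tested.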

How the results depend on the processing

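No paired analysis was possible because the groups share only 1 replicate letter, a, and larval brain has 1 array. Of 13 alternatives all kept ImpE2, ImpE3 and ImpL1 higher and ImpL2 lower in larval brain, and ImpE1 ran from 0.00 to 0.36. The log2 difference moved by more than 1 SD of the embryo culture arrays for ImpE3 (3.44 with a pseudocount at the 5th percentile, 1.62 at the 40th, 1.39 with the mean of its probe sets), for ImpE2 (6.10) and ImpL1 (2.71) with the 40th percentile, and for ImpL2 (-2.17 with the 3′ to middle index). Without 1 embryo culture array ImpE2 ran from 6.78 to 7.26, ImpE3 from 2.52 to 2.77, ImpL1 from 3.32 to 3.72 and ImpL2 from -1.38 to -0.86. Median centring moved the median of all genes by 0.12. Of 455 probe sets past the threshold (121 higher), 303 (77 higher) passed without the variance trend, and 796 (305 higher) with c and d as the only embryo culture arrays. Leaving out 1 embryo culture array gave 292 to 403, with 59 to 91 higher (63, 59 and 70 without a, b and c). Ecdysone pathway genes past the threshold were 0 to 1 higher and 0 to 1 lower when an array was left out. They were 2 higher and 0 lower with the 40th percentile, 2 higher with dim probe sets left out, 2 higher and 2 lower with c and d alone, and 1 higher and 0 lower with the 3′ to middle index. With c and d alone 1 insulin pathway gene, Pdk1, was lower. The causes were not tested.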
